A study of Mus musculus with 6 samples.

Results

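The genes described here are 31 targets of the hypoxia-inducible factors (HIF) that lie outside glycolysis. They were taken by symbol from a written list, and each was read from its brightest probe set that names 1 gene. All 31 were measured, out of 19937 genes with such a probe set. RNA came from whole livers of FVB/NJ mouse embryos at embryonic day 13.5, collected from timed matings of Klf1 +/- mice and dissociated to single cells before extraction. The groups were 3 Klf1-/- livers (knockout) and 3 wildtype livers, with 1 Affymetrix gene array for each liver, so n = 3 per group throughout. The labels state neither how the Klf1 allele was made nor which embryos were littermates, and the p-values below reflect no more than the spread among these 6 livers.

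HIF is a pair of proteins whose alpha subunit is hydroxylated by oxygen-dependent enzymes, bound by the Vhl protein and degraded. When oxygen is short the alpha subunit persists, joins Arnt and binds DNA at a short core, ACGTG or GCGTG. Its best known targets move glucose into glycolysis, while the genes treated here act on chromatin, vessels, collagen, mitochondria and lipid stores. Fetal liver is the organ in which definitive red cells form, and Klf1 is a transcription factor of red cell precursors. In a whole liver, fewer cells of a type and less RNA per cell cannot be told apart.

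Klf1 itself read 9.05, 9.38 and 9.12 in knockout replicates 1, 2 and 3, against 10.59, 10.58 and 10.76 in the wildtype replicates, on the log2 intensity scale used for all levels below. It fell by 1.46 ± 0.10 (limma adjusted p = 3.72e-06). Signal that remains says nothing about the protein, because the altered part of the gene is not given. Median intensities of the arrays lay between 104.5 and 109.8. Knockout replicate 1 and wildtype replicate 2 carried Y-linked transcripts, with Uty at 9.97 and 9.44, while Uty read 4.16 to 4.35 on the other 4 arrays, so each group held 1 such embryo. Wildtype replicate 3 had the highest summed intensity of hepatoblast, endothelial and mesenchymal markers among the 6 arrays.

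Most of the HIF target genes were higher in knockout livers. Each change below is the mean log2 level in knockout less that in wildtype livers, ± the standard error from limma. Calls rest on p-values adjusted over all 19937 genes (Benjamini-Hochberg, threshold 0.05). Of the 31 genes 20 were called higher, where 10.8% of all genes were, and 1 was called lower, where 8.26% of all genes were. The other 10 were not called. In either direction 21 of 31 were called, against 19.1% of all genes. Knockout arrays were all above wildtype arrays in 21 of the genes (19.0% of all genes) and all below in 1 gene (18.5% of all genes). Either separation held for 37.5% of all genes. The 31 genes, and the lists used further below, were chosen with earlier results of these data known. Their counts set against all genes are therefore a description and not an independent test.

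The changes were moderate in size. The median change of the 31 genes was 0.46, and 27 changes were above 0. Over all genes the median was -0.02 and 45.2% of changes were above 0. A rise of at least 2-fold was reached and called in 2 genes, Stc2 and Kdm3a, a step that 0.527% of all genes took. The extremes were a rise of 1.25 ± 0.14 in Stc2 and a change of -0.31 ± 0.14 in Lox, which was not called. None of the 31 genes lay below the lower quartile of mean levels over all genes, and 12 lay below the median, so dim signal did not remove any of them from the quartile-filtered fit.

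With 1 array left out, between 18 and 20 of the genes were called higher. The single lower call, Mxi1, was lost without knockout replicate 2, knockout replicate 3 or wildtype replicate 2, and Lox joined it without wildtype replicate 1, so that count ran from 0 to 2. Calls over all genes moved more. The number of all genes called higher was 2163 with all arrays, 1371 without knockout replicate 2 and 1388 without knockout replicate 3. The number of all genes called lower was 1646 with all arrays, 1038 without knockout replicate 2 and 1026 without knockout replicate 3.

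**Figure D1:**
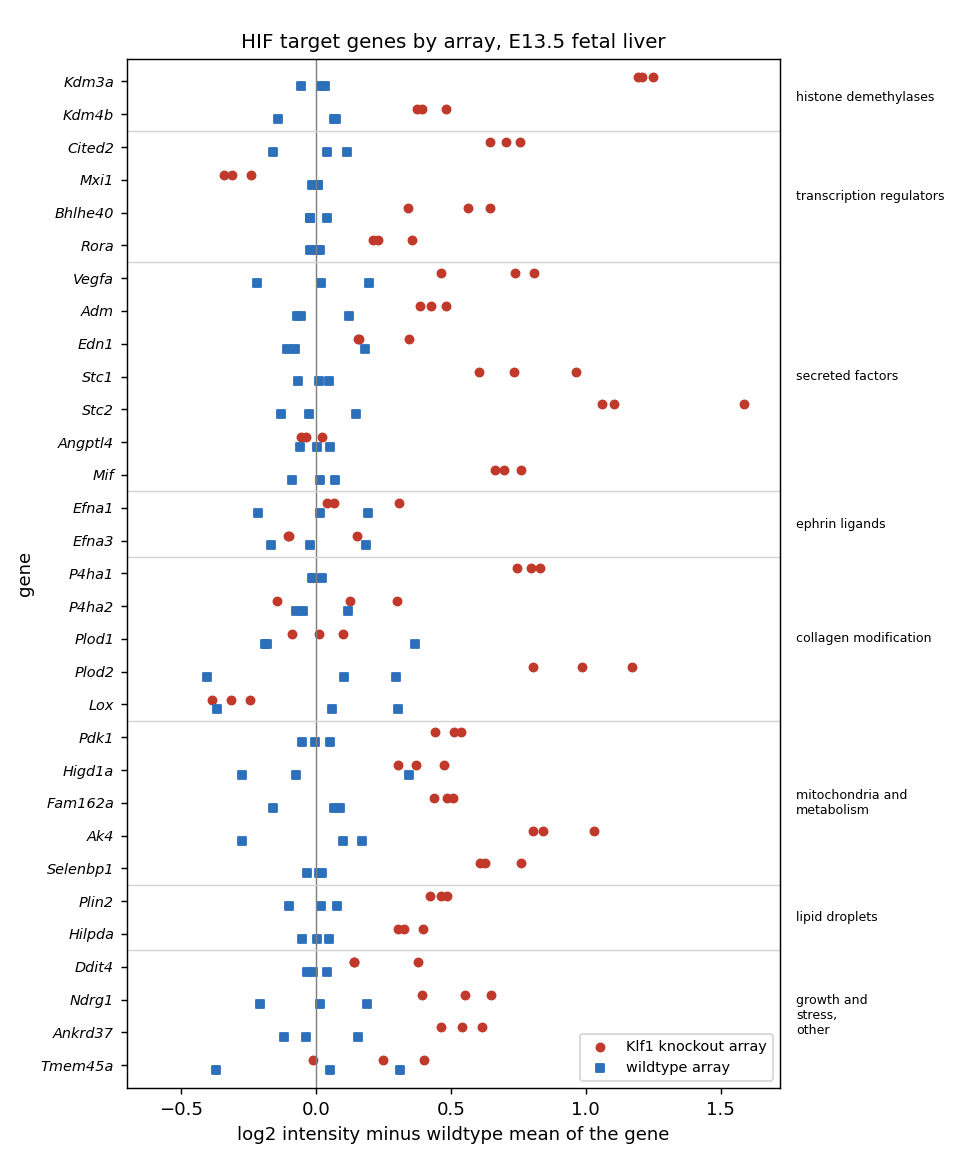
Log2 intensity of each of the 31 genes on each array, less the wildtype mean of that gene, grouped by function; circles are the 3 knockout arrays and squares the 3 wildtype arrays. In 21 genes every knockout array lies to the right of every wildtype array, and in Mxi1 every one lies to the left.

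**Figure D2:**
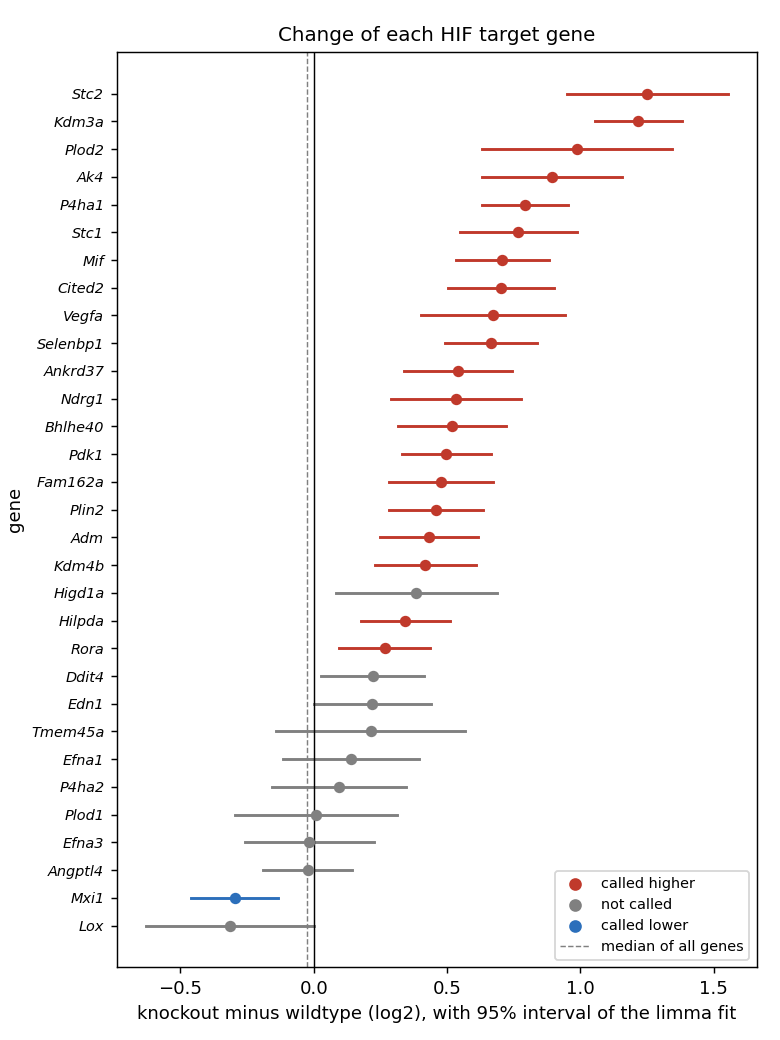
Change of each gene (log2, knockout less wildtype), with its 95% limma interval; colours give the call and the dashed line the median of all genes at -0.02. The genes run from Stc2 at 1.25 to Lox at -0.31, with 20 called higher, 10 not called and 1 called lower.

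The letters of the HIF core were looked for in the 250 bases before the RefSeq transcription starts (GRCm38.p6). The motifs were ACGTG and GCGTG, each on either strand; a CACGTG holds ACGTG on both strands and counts as 2 matches. Of the 31 genes 24 had a promoter in the table, with 36 starts between them. A match stood before 26 of the 36 starts, or 72.2%, against 46.2% of the 19176 starts of measured genes. By motif, ACGTG stood before 36.1% of starts of these genes and 18.4% of starts of measured genes, and GCGTG before 61.1% and 35.9%. These promoters also held more G and C, with a median of 63.6% against 56.8%. Among genes with a promoter in the table, 14 of the 15 called higher had a match before at least 1 start, as had 7 of the 9 others. Of all measured genes with a promoter, 49.9% had such a match. A gene with several starts had more places for a match. Vegfa, for example, held 0 before its first start and 2 before its second. The Vegfa bases before that second start lie beyond its first start, so they may be part of transcripts that begin there. The counts above did not set such starts apart, and whether these matches are transcribed was not tested. A match is a run of letters and not a binding site, and the comparison was not tested.

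The upstream sequences below, 250 bases each, belong to the genes that show how matches and changes lined up or did not. They are the 2 genes with the largest rises, Stc2 and Kdm3a; P4ha1 and P4ha2, close relatives of which 1 rose; Fam162a, which has the most matches before any single start; and Mxi1, the gene called lower. Sequences run 5′ to 3′ towards the start and capitals mark the core matches on either strand. For Kdm3a the first of 3 starts in the table is shown, and for Mxi1 the last of 3.
Stc2 (chr11:31370062-31370311, minus strand): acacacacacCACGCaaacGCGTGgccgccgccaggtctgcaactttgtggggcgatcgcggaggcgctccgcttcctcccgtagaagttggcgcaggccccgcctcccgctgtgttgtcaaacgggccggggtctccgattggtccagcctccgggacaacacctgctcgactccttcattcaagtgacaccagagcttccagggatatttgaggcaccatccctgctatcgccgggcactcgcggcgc
Kdm3a (chr6:71632918-71633167, minus strand): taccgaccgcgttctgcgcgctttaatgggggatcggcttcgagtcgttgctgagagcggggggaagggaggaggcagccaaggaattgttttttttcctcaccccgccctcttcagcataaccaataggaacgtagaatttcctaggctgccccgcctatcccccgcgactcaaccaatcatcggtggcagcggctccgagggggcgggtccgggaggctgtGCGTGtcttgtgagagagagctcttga
P4ha1 (chr10:59323046-59323295, plus strand): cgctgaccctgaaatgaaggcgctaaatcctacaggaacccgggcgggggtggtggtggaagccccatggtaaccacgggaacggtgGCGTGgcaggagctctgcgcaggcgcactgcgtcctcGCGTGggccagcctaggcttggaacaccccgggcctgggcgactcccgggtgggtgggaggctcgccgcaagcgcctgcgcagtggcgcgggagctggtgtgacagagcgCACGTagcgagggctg
P4ha2 (chr11:54100674-54100923, plus strand): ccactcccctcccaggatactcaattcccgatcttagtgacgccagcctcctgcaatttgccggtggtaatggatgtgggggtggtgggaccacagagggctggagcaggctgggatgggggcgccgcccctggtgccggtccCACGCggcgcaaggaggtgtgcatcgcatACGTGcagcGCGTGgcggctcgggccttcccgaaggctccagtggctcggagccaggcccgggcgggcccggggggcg
Fam162a (chr16:36071562-36071811, minus strand): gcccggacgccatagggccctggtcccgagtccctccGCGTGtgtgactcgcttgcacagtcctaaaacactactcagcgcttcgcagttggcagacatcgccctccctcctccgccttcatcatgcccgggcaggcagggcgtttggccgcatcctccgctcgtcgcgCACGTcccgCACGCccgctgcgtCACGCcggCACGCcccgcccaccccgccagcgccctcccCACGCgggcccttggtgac
Mxi1 (chr19:53329445-53329694, plus strand): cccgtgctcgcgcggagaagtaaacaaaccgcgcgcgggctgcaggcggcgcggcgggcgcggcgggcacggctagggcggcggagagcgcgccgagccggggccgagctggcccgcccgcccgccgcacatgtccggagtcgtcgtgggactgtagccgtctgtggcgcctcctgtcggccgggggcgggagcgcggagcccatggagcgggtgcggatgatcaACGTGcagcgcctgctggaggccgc

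Stc2 held 2 matches. Kdm3a held 1, at 27 to 23 bases before this start, and 0 before each of its other starts. P4ha1 and P4ha2 held 3 each. Fam162a held 6, of which 5 were GCGTG. Mxi1 held 1 before the start shown, 0 before its first start and 1 before its second, at 66 to 62 bases. The Mxi1 bases shown lie beyond that second start, so they may be part of transcripts that begin there. Whether the marked match is transcribed was not tested. Neither the 250 bases before the single Mif start nor those before the Edn1 start held a match, although Mif rose.

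**Figure D3:**
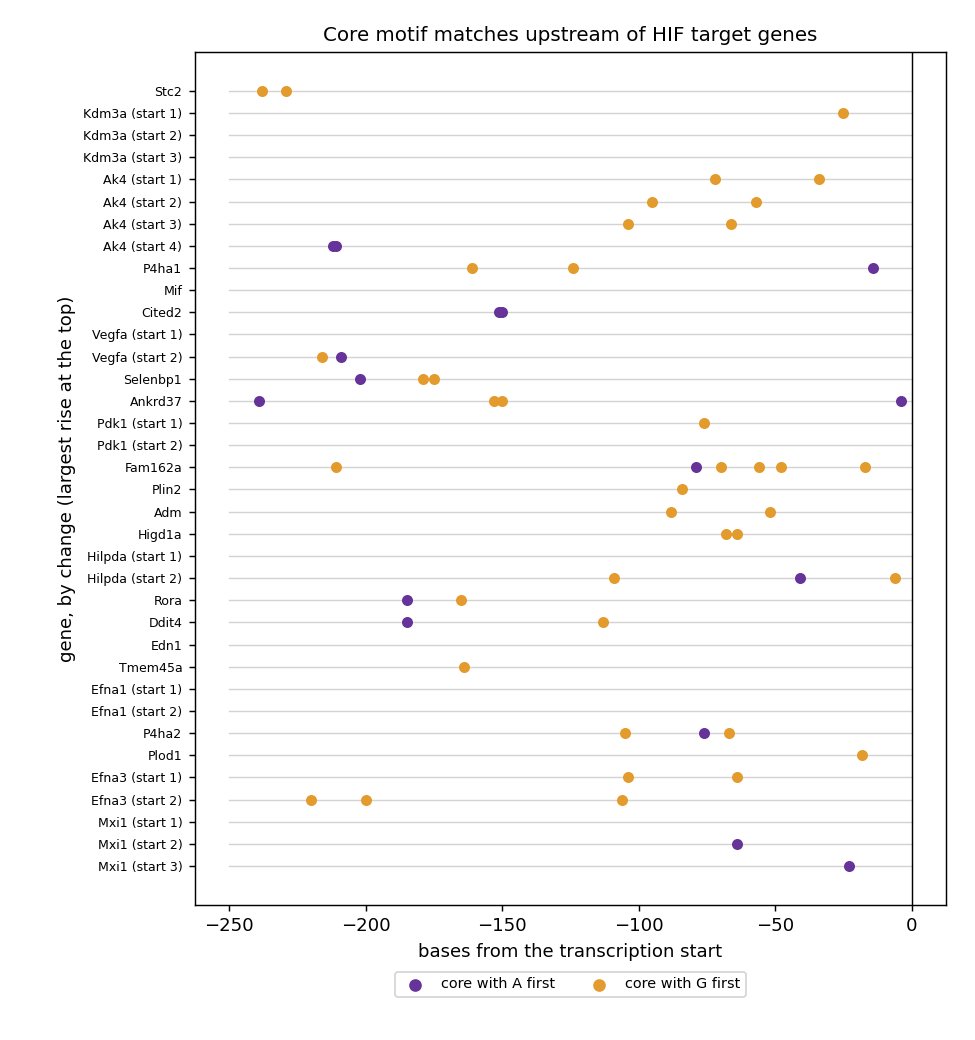
Position of core matches in the 250 bases before each RefSeq start of the 24 genes with a promoter in the table, in bases from the start, with genes ordered by their change and the largest rise at the top; colours separate the core that begins with A from the one that begins with G. Matches lie before starts of genes that rose and of genes that were not called, such as P4ha2 and Efna3.

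Both histone demethylases of the list rose. These enzymes use oxygen to strip methyl groups from histone tails. Kdm3a read 10.53, 10.49 and 10.48 in the knockout livers, against 9.32, 9.23 and 9.30 in the wildtype livers, a rise of 1.22 ± 0.07 or 2.33-fold (limma adjusted p = 1.29e-06). The gap between the groups was far wider than the spread within either. Kdm4b read 8.49, 8.47 and 8.58 in knockout and 7.95, 8.16 and 8.17 in wildtype livers and rose by 0.42 ± 0.09 (adjusted p = 0.00643). The rise of Kdm3a exceeded that of Kdm4b by 0.80. The difference between the 2 genes was larger on every knockout array than on any wildtype array (exact permutation test, 2-sided p = 0.10, the smallest that 3 against 3 arrays allow).

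Other enzymes of the same JmjC family were called in both directions. Of 21 measured, 5 were called higher and 1 lower, with a median of 0.14. Of all genes 10.8% were called higher and 8.26% lower, so the single lower call is near the background. Kdm5b, which acts on a mark of active promoters, rose by 1.36 ± 0.08 and Kdm6b by 0.62 ± 0.07, while Kdm7a fell by 1.79 ± 0.07. Jmjd6 rose by 0.50 ± 0.09. This list shares Jmjd6 and Kdm4c with the list of further HIF targets below. The lower count was 2 without wildtype replicate 2, and also with the level of Y-linked transcripts as a covariate. The list includes Kdm5d and Uty, which are Y-linked and follow the sex of the embryos. Kdm6a, named after its values were seen, was lowest of each group on the array with Y-linked transcripts. It read 10.44, 11.11 and 11.01 in knockout and 11.44, 10.67 and 11.46 in wildtype livers.

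Of the 4 transcription regulators 3 rose and 1 fell. Cited2, which competes with the HIF alpha subunit for shared coactivators and so limits HIF, read 10.94, 10.88 and 10.99 in knockout livers, against 10.35, 10.27 and 10.07 in wildtype livers. Its rise was 0.70 ± 0.09 (adjusted p = 0.000302). Bhlhe40, a repressor that also acts in the circadian clock, read 6.59, 6.81 and 6.89 in knockout and 6.22, 6.23 and 6.29 in wildtype livers. It rose by 0.52 ± 0.09 (adjusted p = 0.00262), and the knockout arrays were spread more widely than the wildtype arrays.

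Mxi1, an antagonist of Myc, was the exception to the common direction. It read 8.67, 8.57 and 8.60 in knockout livers, against 8.92, 8.92 and 8.89 in wildtype livers. It fell by 0.30 ± 0.07 (adjusted p = 0.0176), a small shift between groups that did not overlap. Its adjusted p ran up to 0.0766 when 1 array was left out. Rora, a nuclear receptor that drives clock genes, read 7.16, 7.01 and 7.03 in knockout and 6.81, 6.82 and 6.78 in wildtype livers and rose by 0.27 ± 0.08 (adjusted p = 0.035). That call was lost whichever array was left out, with adjusted p from 0.0602 to 0.102, and with the replicate number as a block (adjusted p = 0.0614).

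Secreted factors gave 5 rises among 7 genes. The stanniocalcins, glycoprotein hormones first known from calcium control in fish, both rose. Stc2 read 8.83, 8.35 and 8.30 in knockout livers, against 7.22, 7.40 and 7.12 in wildtype livers. It rose by 1.25 ± 0.14, or 2.38-fold (adjusted p = 9.32e-05), and knockout replicate 1 stood above the other 2 knockout arrays. Stc1 read 7.53, 7.30 and 7.17 in knockout and 6.50, 6.57 and 6.61 in wildtype livers, a rise of 0.77 ± 0.10 (adjusted p = 0.000318). The groups were apart for both genes. The rise of Stc2 was larger than that of Stc1 by 0.48 (exact permutation p = 0.10).

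Vegfa, the main growth factor for vessels, read 9.93, 9.58 and 9.85 in knockout livers, against 8.90, 9.13 and 9.31 in wildtype livers. The groups did not overlap, wildtype replicate 1 was the lowest array, and the rise was 0.67 ± 0.12 (adjusted p = 0.00303). Adm encodes adrenomedullin, a peptide that widens vessels. It read 7.12, 7.06 and 7.02 in knockout and 6.58, 6.56 and 6.76 in wildtype livers and rose by 0.43 ± 0.08 (adjusted p = 0.0042). Edn1 encodes endothelin, which narrows vessels. Its levels were 6.22, 6.22 and 6.41 in knockout and 5.98, 6.25 and 5.96 in wildtype livers, with overlap, and the change of 0.22 ± 0.10 was not called (adjusted p = 0.149).

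Mif, a cytokine that also has tautomerase activity, read 12.80, 12.77 and 12.87 in knockout livers, against 12.12, 12.18 and 12.02 in wildtype livers, and rose by 0.71 ± 0.08 (adjusted p = 0.000115). This brightest Mif probe set is numbered among probe sets of chromosome 9 genes, whereas Mif lies on chromosome 10, and RefSeq lists Mif pseudogenes on several chromosomes. The Mif probe set numbered among chromosome 10 genes rose by 0.59 ± 0.09 (adjusted p = 0.000958), and the remaining one by 0.78. All 3 therefore moved the same way, but a share of signal from pseudogene copies cannot be told apart. Angptl4, an inhibitor of lipoprotein lipase, read 7.79, 7.77 and 7.85 in knockout and 7.77, 7.84 and 7.88 in wildtype livers. Its change of -0.02 ± 0.08 had a 95% interval of -0.19 to 0.14, which leaves out changes as large as those of the genes that rose here.

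The ephrin ligands Efna1 and Efna3, membrane-anchored signals for Eph receptors, were not called. Efna1 read 6.66, 6.42 and 6.39 in knockout and 6.14, 6.37 and 6.55 in wildtype livers, and Efna3 read 5.79, 5.53 and 5.54 in knockout and 5.47, 5.82 and 5.61 in wildtype livers. The arrays of the groups overlapped in both genes. Their changes were 0.14, with an interval of -0.11 to 0.39, and -0.02, with an interval of -0.26 to 0.22. Efna3 turned positive with quantile normalization or without knockout replicate 2 or 3 or wildtype replicate 2. At an unadjusted limma p under 0.05, 0 of the 2 passed, where 33.3% of all genes did in either direction, so a count of 0 among 2 genes is near the background.

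Among genes of collagen modification, calls differed between isoforms. P4ha1 and P4ha2 encode alternative catalytic subunits of the prolyl hydroxylase that stabilises the collagen triple helix. P4ha1 read 10.21, 10.13 and 10.18 in knockout livers, against 9.37, 9.38 and 9.41 in wildtype livers, and rose by 0.79 ± 0.07, or 1.73-fold (adjusted p = 2.82e-05). P4ha2 read 6.79, 6.34 and 6.61 in knockout and 6.44, 6.60 and 6.41 in wildtype livers, with overlap. P4ha2 thus lay under the median level over all genes, 7.03, on every array, and dim signal limits small changes. Its change of 0.09 ± 0.11 was not called (adjusted p = 0.595) and turned to -0.01 without knockout replicate 1. P4ha1 thus rose by 0.70 more than P4ha2, on every knockout array against every wildtype array (exact permutation p = 0.10). As shown above, the upstream sequences of both genes hold 3 core matches.

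Plod1 and Plod2 encode lysyl hydroxylases, and Plod2 acts on the ends of the collagen chain that form cross-links. Plod2 read 8.83, 8.46 and 8.64 in knockout livers, against 7.25, 7.76 and 7.95 in wildtype livers. It rose by 0.99 ± 0.16 (adjusted p = 0.00162), and the value ran from 0.79 without wildtype replicate 1 to 1.14 without wildtype replicate 3. Plod1 read 9.64, 9.75 and 9.83 in knockout and 9.55, 9.54 and 10.10 in wildtype livers, where replicate 3 stood apart from the others. Its change of 0.01 ± 0.14 was not called and ran from -0.09 to 0.19 with 1 array left out; it also turned negative with quantile normalization and with centring on the 75th percentile. Plod2 rose by 0.98 more than Plod1 (exact permutation p = 0.10). Over the 5 pairs of related genes compared this way, the Benjamini-Hochberg adjusted p was 0.125 for the 4 pairs whose arrays were apart and 0.40 for Efna1 and Efna3. With 3 against 3 arrays the exact p cannot fall below 0.10, so these tests cannot decide whether the changes of a pair differ.

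Lox, the lysyl oxidase that cross-links collagen and elastin, had the lowest change of the 31 genes. It read 6.86, 7.00 and 6.93 in knockout livers, against 6.88, 7.30 and 7.55 in wildtype livers. The groups overlapped through wildtype replicate 1, and the change of -0.31 ± 0.14 was not called (adjusted p = 0.152). Without wildtype replicate 1 it was -0.50 (adjusted p = 0.00819). In Lox and Plod2, as in the summed intensity of 21 mesenchymal and stellate markers, wildtype replicate 1 was the lowest and replicate 3 the highest of the wildtype arrays. The marker sum was 12479 to 14337 in knockout livers and 12394 to 16286 in wildtype livers. A linear sum gives the brighter probe sets more weight. Changes were above 0 in 5 of the 21 markers, with a median of -0.13, where 45.2% of all genes had changes above 0. The called markers were Lum, lower by 0.74 ± 0.18, and Rgs5, higher by 0.38 ± 0.12, where 8.26% of all genes were called lower and 10.8% higher. With 1 array left out, 0 to 4 were called lower, 0 without knockout replicate 2 and 4 without wildtype replicate 1, and 0 to 2 were called higher, 2 without wildtype replicate 3, 1 without knockout replicate 2 and 0 without any of the others. The part of these cells in the result was not tested.

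Other collagen-modifying enzymes gave no call in limma. Of 15 measured, 0 were called in either direction and 2 had an unadjusted p under 0.05, both lower, with a median of -0.10. Of all genes 16.4% were lower at that p, so the 2 of 15 are near the background. The closest to the threshold were Ppib, a prolyl isomerase of collagen folding, at -0.23 ± 0.08, and the collagen chaperone Serpinh1, at -0.28 ± 0.11. Without wildtype replicate 1, 2 of the 15 were called lower.

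**Figure D4:**
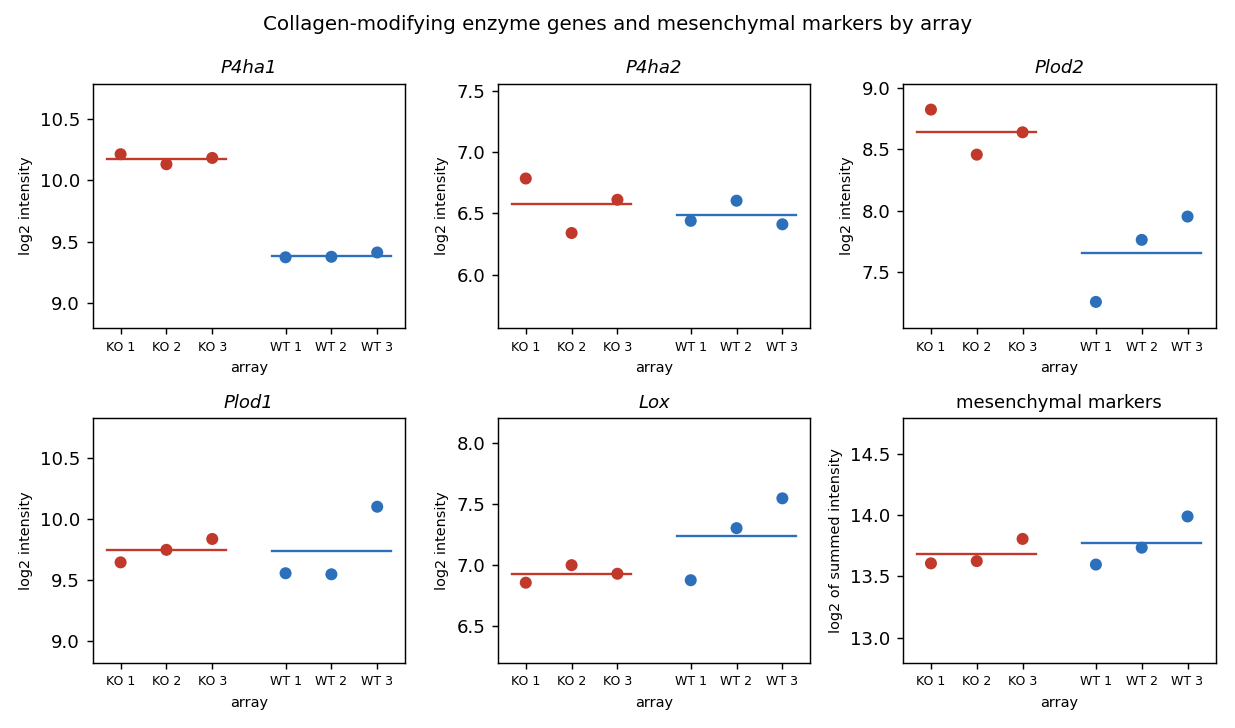
Log2 intensity of 5 collagen-modifying genes on each array, and log2 of the summed intensity of 21 mesenchymal and stellate markers (lower right), knockout (KO) left of wildtype (WT); lines are group means and every panel spans the same log2 range. P4ha1 and Plod2 are higher on all knockout arrays, while P4ha2, Plod1 and Lox overlap between the groups.

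The 5 genes of mitochondria and metabolism all had positive changes, and 4 were called higher. Pdk1, a kinase that shuts pyruvate dehydrogenase and so keeps pyruvate out of mitochondria, read 10.25, 10.28 and 10.18 in knockout livers, against 9.74, 9.79 and 9.69 in wildtype livers. It rose by 0.50 ± 0.08 (adjusted p = 0.00101). Fam162a, a mitochondrial protein tied to cell death in hypoxia, read 9.82, 9.84 and 9.77 in knockout and 9.42, 9.40 and 9.18 in wildtype livers and rose by 0.48 ± 0.09 (adjusted p = 0.00324). Groups were apart in both genes. Ak4, a mitochondrial adenylate kinase, read 11.08, 10.89 and 10.85 in knockout and 10.21, 10.15 and 9.77 in wildtype livers and rose by 0.89 ± 0.12 (adjusted p = 0.000405). The brightest Ak4 probe set is numbered among those of chromosome 2 genes, whereas Ak4 lies on chromosome 4; the set numbered among chromosome 4 genes rose by 0.66 ± 0.13 (adjusted p = 0.00471).

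Selenbp1, which binds selenium and oxidises methanethiol in humans, read 8.31, 8.18 and 8.16 in knockout livers, against 7.52, 7.57 and 7.56 in wildtype livers. Its rise was 0.66 ± 0.08 (adjusted p = 0.000162). The gene has a near-identical copy in mice, Selenbp2, named here after its values were seen, whose own probe set rose by 0.42 ± 0.09; signals of the copies may not be separable. Higd1a, a small inner membrane protein of mitochondria, read 7.36, 7.19 and 7.26 in knockout and 7.23, 6.81 and 6.61 in wildtype livers. Its change of 0.38 ± 0.14 was not called (adjusted p = 0.074), and wildtype replicate 1 reached into the knockout range. Without that array it was 0.56 (adjusted p = 0.00403), and its other probe set, numbered among those of chromosome 3 genes whereas Higd1a lies on chromosome 9, changed by 0.49.

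Both lipid droplet genes rose. Plin2, which coats lipid droplets, read 11.75, 11.77 and 11.71 in knockout livers, against 11.31, 11.37 and 11.19 in wildtype livers, and rose by 0.46 ± 0.08 (adjusted p = 0.00231). Hilpda, an inhibitor of triglyceride breakdown, read 7.04, 7.02 and 7.12 in knockout and 6.77, 6.72 and 6.67 in wildtype livers. It rose by 0.34 ± 0.08 (adjusted p = 0.00955), with adjusted p = 0.0534 without knockout replicate 3. All knockout arrays were above all wildtype arrays in both genes.

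Of the remaining 4 genes 2 rose. Ndrg1, a stress and differentiation gene, read 9.63, 9.37 and 9.53 in knockout livers, against 9.17, 8.99 and 8.77 in wildtype livers, and rose by 0.53 ± 0.11 (adjusted p = 0.00685). Ankrd37, a small ankyrin repeat protein, read 7.31, 7.15 and 7.23 in knockout and 6.85, 6.57 and 6.65 in wildtype livers and rose by 0.54 ± 0.09 (adjusted p = 0.00197). In both genes wildtype replicate 1 was the highest of its group. Ddit4, an inhibitor of mTOR signalling, read 6.81, 6.57 and 6.57 in knockout and 6.47, 6.42 and 6.40 in wildtype livers. Its groups were apart, but the change of 0.22 ± 0.09 was not called (adjusted p = 0.105). Tmem45a, a membrane protein, read 6.28, 5.86 and 6.12 in knockout and 5.93, 5.51 and 6.19 in wildtype livers, with overlap and a change of 0.21 ± 0.16.

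The knockout livers were not alike in these genes. Knockout replicate 1 had the highest level of its group in 19 of the 31 genes, where it was the highest in 33.7% of all genes, and knockout replicate 2 the lowest in 18, where it was the lowest in 34.5% of all genes. Relative to the wildtype means, the median over the 31 genes was 0.48, 0.43 and 0.44 on knockout replicates 1, 2 and 3. It was -0.01, 0.02 and -0.02 on the wildtype replicates. The shift of the median was thus similar on the 3 knockout arrays. Knockout replicate 1 was also the knockout embryo with Y-linked transcripts; with their level as a covariate, an alternative chosen after the data were seen, 20 genes were called higher and 1 lower.

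Further HIF targets give the setting of these changes. In a list of 47 measured targets outside the 31, which includes Egln1 and Vhl of the pathway itself, 19 were called higher and 4 lower, with a median of 0.16. Of all genes 10.8% were called higher and 8.26% lower, so the 4 lower calls among 47 are near the background. Egln3, an oxygen-sensing hydroxylase, rose by 2.35 ± 0.11, the mitophagy receptor Bnip3 by 2.09 ± 0.18 and Igfbp1, a binding protein for insulin-like growth factors, by 1.34 ± 0.19, while the phosphatase gene Dusp1 fell by 2.91 ± 0.10. The lower count was 2 without knockout replicate 1. Of 16 glycolytic targets 14 were called higher and 1 lower, with a median of 0.73. Pfkp rose by 1.37 ± 0.09, Aldoa by 1.22 ± 0.08 and Pkm by 1.19 ± 0.08, all enzymes of glycolysis, and the glucose transporter gene Slc2a1 fell by 1.99 ± 0.08.

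Among the HIF subunits and oxygen sensors 3 of 11 were called higher and 0 lower in limma, and at an unadjusted p under 0.05 the counts were 5 and 0. Of all genes 16.8% were higher and 16.4% lower at that p. Besides Egln3, the hydroxylase gene Egln1 rose by 0.38 ± 0.08 and Hif1a by 0.29 ± 0.09 (adjusted p = 0.0401). The Hif1a call was lost without any of the knockout replicates or wildtype replicate 2 or 3 (adjusted p = 0.0695 to 0.127), with the replicate number as a block (adjusted p = 0.0542) and with 75th percentile centring (adjusted p = 0.0832). The higher count of the list ran from 2 to 4 with 1 array left out. Epas1, the other main alpha subunit, changed by 0.25 ± 0.09 and Arnt by 0.02 ± 0.07, and neither was called. These are RNA levels, and HIF is controlled largely through the stability of its protein.

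**Figure D5:**
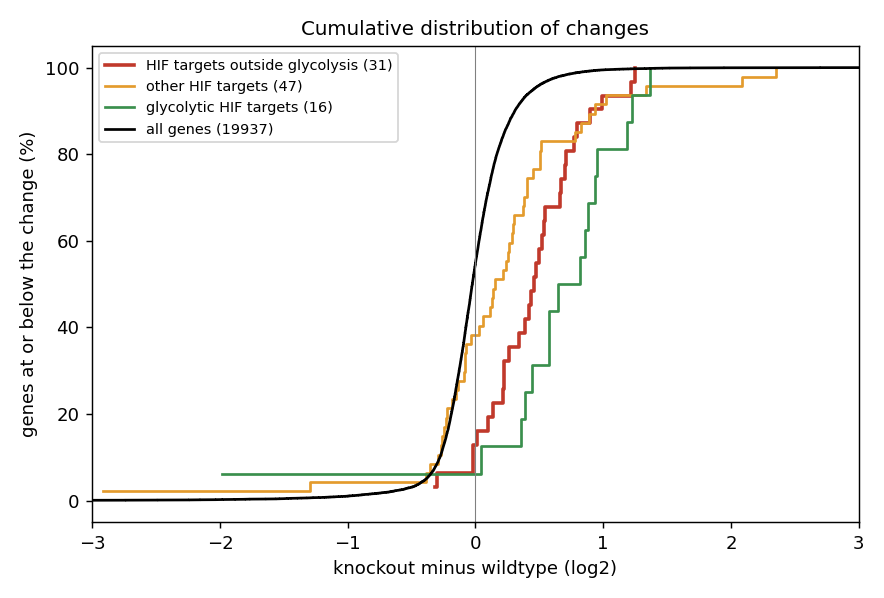
Cumulative share of genes (%) at or below each change (log2, knockout less wildtype) for the 31 HIF targets outside glycolysis, 47 other HIF targets, 16 glycolytic HIF targets and all 19937 genes. The curve of the 31 genes has its median at 0.46, between the other HIF targets at 0.16 and the glycolytic ones at 0.73, with all genes at -0.02.

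Markers of several cell types in the liver moved at the same time. Their counts of calls stand beside 10.8% of all genes called higher and 8.26% called lower. Summed intensity of 13 erythroid markers was 37720 to 40423 in knockout livers, against 68085 to 74353 in wildtype livers. Of these markers 11 were called lower. Add2, a membrane skeleton gene, fell by 1.98 ± 0.08 and Ermap by 1.59 ± 0.07. The other 2, named after their values were seen, were not called: Gata1 at -0.02 ± 0.08 and Rhag at -0.15 ± 0.08. Megakaryocyte markers summed to 33890 to 43981 in knockout livers, against 23133 to 24690 in wildtype livers, with 13 of 14 called higher, among them Thbs1 at 1.26 ± 0.09 and Itga2b at 1.05 ± 0.12. Stem and progenitor markers summed to 7437 to 8055 in knockout and 5824 to 6068 in wildtype livers, with 9 of 16 called higher (5 without knockout replicate 2 or wildtype replicate 2), led by Slamf1 at 1.32 ± 0.08 and Gata2 at 0.65 ± 0.11. Of these 16 markers 10 had changes above 0, and the others, down to -0.19, were not called; a linear sum gives the brighter probe sets more weight. The erythroid sum was thus lower, and the megakaryocyte and progenitor sums higher, on every knockout array.

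Granulocyte markers summed to 9996 to 12844 in knockout and 7614 to 8832 in wildtype livers, with 7 of 17 called higher, Ly6g and Mpo the most. The count was 3 without knockout replicate 3 and 4 without knockout replicate 2, wildtype replicate 2 or wildtype replicate 3. Macrophage markers summed to 7186 to 7916 in knockout livers, against 9049 to 10803 in wildtype livers, with 9 of 19 called lower, led by Lgmn and Cd5l, and 7 to 11 with 1 array left out. The macrophage marker called higher was Hmox1, the heme-degrading oxygenase, named after its values were seen, at 0.30 ± 0.08. That count was 0 without any of the knockout replicates or wildtype replicate 1. Sums of 18 hepatoblast markers overlapped, at 80557 to 85849 in knockout and 83778 to 101259 in wildtype livers, with 4 called lower, Fga and Fgg the most, but 0 without knockout replicate 2, knockout replicate 3 or wildtype replicate 3 and 2 without knockout replicate 1. Endothelial markers also overlapped, at 6251 to 7355 in knockout and 5795 to 7936 in wildtype livers. Of the 17, 2 were called higher, Flt1, itself a HIF target, at 0.51 ± 0.11 and Pecam1 at 0.40 ± 0.12. With 10.8% of all genes called higher, 2 of 17 is near the background. The higher count was 7 without wildtype replicate 3, and 1 without knockout replicate 2 or 3 or wildtype replicate 1 or 2. Changes were above 0 in 11 of the 17. Lyve1, named after its values were seen, changed by -0.48 ± 0.16 and was not called. The lower count was 0 with all arrays and 1 without wildtype replicate 2. Across these lists the dimmest marker had a mean intensity of 15.9, and 0 markers stood at an intensity of 0. The part of these cells in the changes of the HIF targets was not tested.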

How the data were processed

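RNA of 6 livers was measured on 1-colour Affymetrix MoGene-1_0-st-v1 arrays. The deposited values are linear probe set intensities. The submitters' processing notes name RMA and Affymetrix Power Tools (version 1.8.6) as the authors' software. A genome build was not given in the sources used here. Since RMA equalises the arrays, a change in total RNA cannot be seen. The log2 of each deposited intensity was taken without further scaling. Probe sets were named through the platform annotation. Of the 34760 sets, 21640 paired with a single gene, 1321 with several genes, and 11799 were unnamed here; 19937 genes were represented by their brightest single-gene probe set. Knockout and wildtype were compared with limma 3.58.1 (lmFit, then eBayes) under R 4.3.3, group as the sole term, 2-sided, with Benjamini-Hochberg adjustment over all genes. The script was tested on simulated data with known changes. The number of arrays limits the precision. Promoter sequences are from RefSeq (GRCm38.p6).

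The members and lists were chosen with earlier results of these data known. Named genes were Klf1, all 31 members, up to 4 called genes of largest change in each pathway list (the 2 smallest p where none was called) and up to 2 in each marker list; genes named beyond that rule, such as Selenbp2, Uty, Epas1, Arnt and Hmox1, were chosen after their values were seen. Alternatives were other normalizations, filters on dim genes, the mean of probe sets, other variance models, a pseudocount of 16, a threshold of 0.01, a replicate block and leaving out each array. A covariate for Y-linked genes and the probe sets of Mif and Ak4 numbered among genes of their own chromosome were added after the data were seen.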

Additional observations from a re-analysis of the deposited data

How the results depend on the processing

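Of the 31 genes 20 kept their direction and their side of the threshold under each of the 19 alternatives that measured them, among them leaving out each array. These were 18 of the 20 genes called higher, all but Rora and Hilpda, and 2 that were not called, Efna1 and Tmem45a. Genes called higher numbered 15 to 22 over the alternatives, the fewest with genes under the median level left out, which kept 19 of the 31 in the fit. Genes called lower numbered 0 to 2 with 1 array left out, and 0 with housekeeping centring or at a threshold of 0.01. The median change was 0.39 with 75th percentile centring and 0.53 with genes under the median level left out. With 1 array left out it was 0.43 to 0.50. Less the median of all genes it was 0.48 both with and without 75th percentile centring. That equality is arithmetic, because such centring shifts all genes of an array by the same amount. The number of all genes called higher was 1371 to 2106 and of all genes called lower 1026 to 1643 with 1 array left out, 1160 and 835 at a threshold of 0.01, and 1055 lower with housekeeping centring. With 75th percentile centring 1573 were higher and 2462 lower, against 2163 and 1646 without it.

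Directions turned only in genes that were not called. Efna3 was 0.0883 with quantile normalization and ran from -0.1012 to 0.0772 with 1 array left out, above 0 without knockout replicate 2 or 3 or wildtype replicate 2. Plod1 was -0.0097 with quantile normalization and -0.0562 with 75th percentile centring, and ran from -0.0851 to 0.1915 with 1 array left out, below 0 without knockout replicate 3 or wildtype replicate 1 or 2. With 1 array left out P4ha2 ran from -0.0090 to 0.2142, below 0 without knockout replicate 1, and Angptl4 from -0.0522 to 0.0037, above 0 without wildtype replicate 3. Edn1 and Ddit4 were called higher with quantile normalization, at 0.31 and 0.29. Higd1a was called with the mean of its probe sets (0.44), 1 of them numbered among those of another chromosome, with array weights (0.37), with the replicate block and with genes under the median level left out. The cause was not tested.

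Deviations of same-numbered arrays correlated at -0.16, -0.22 and 0.18 across genes, so no common pairing by replicate number was seen. The highest correlation, 0.33, was between knockout replicate 1 and wildtype replicate 2, the embryos with Y-linked transcripts. With so few arrays, these correlations cannot tell whether any samples shared a litter or a processing batch. With the replicate number as a block, 20 genes were called higher and 1 lower, and the number of all genes called higher was 2002 and of all genes called lower 1496; of the 31, Rora lost its call and Higd1a gained one. Few arrays and dim signal limit small changes.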
